A study of Mus musculus with 6 samples.

Results

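Chromatin accessibility was examined at 9 genes that drive entry into the cell cycle: the D cyclins Ccnd1, Ccnd2 and Ccnd3, their kinases Cdk4 and Cdk6, the E cyclins Ccne1 and Ccne2, their kinase Cdk2, and the phosphatase Cdc25a. Omni-ATAC-Seq, in which the Tn5 transposase inserts adapters into accessible DNA, had been performed on nuclei of mouse hearts at postnatal day 1 (P1), with 50000 nuclei per library. Every preparation passed through a 2.2 M sucrose cushion, and each of the 3 groups held 2 independent biological replicates. Input libraries came from wildtype hearts without further selection. Myc libraries came from hearts of Nkx2-5 Cre/+; R26RSun1-Myc-Egfp/+ mice, in which Cre driven by Nkx2-5 switches on a nuclear envelope protein carrying a Myc epitope tag, and the nuclei were enriched with an antibody to that tag (MAN-IP). Here Myc names the tag and not the transcription factor. Because Nkx2-5 is active in cardiac progenitors, tagged nuclei need not all be cardiomyocyte nuclei. The paper chose the 2.2 M cushion, which it describes as yielding nearly pure cardiomyocyte nuclei, to keep other nuclei out. It reports that antibodies to Myc and to the cardiomyocyte marker phospholamban stained all nuclei from this cushion. Antibody to PCM1 stained only a part of them. PCM1 libraries came from wildtype hearts by MAN-IP with an antibody to PCM1, a centriolar satellite protein found around cardiomyocyte nuclei.

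The peaks of the 6 libraries were merged where they overlapped, and every merged region touching one of the 9 gene bodies or the 10 kb to either side was taken. This gave 80 regions of 169881 in all, at 9 of 21842 protein-coding genes with a protein-coding transcript. Of these, 17 were promoter regions, lying within 1 kb of a protein-coding transcript start of the gene itself. A further 3 lay at the promoter of a neighbour (Taf8 beside Ccnd3, Rab5b beside Cdk2 and Tspan31 beside Cdk4), and the other 60 were distal, 49 in gene bodies and 11 in flanks.

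In G1, D cyclins activate Cdk4 and Cdk6, which phosphorylate the retinoblastoma proteins and so release E2F transcription factors. E2F factors in turn raise transcription of the E cyclins, which activate Cdk2 and carry the cell into S phase, while Cdc25a removes inhibitory phosphates from Cdk2. Cardiomyocytes divide before birth and largely leave the cell cycle soon after it, so the P1 heart is studied as a stage at which this machinery is still in use.

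The sequences below show the promoters and distal sites on which the results turn, read from GRCm38.p6 (mm10). The promoter stretches lie upstream of the coding transcript start nearest the strongest promoter summit, hold no annotated exon and read 5′ to 3′ on the gene's strand. Capitals mark E2F strings, E-boxes (CACGTG) and GC boxes (GGGCGG or its complement). They are Ccne1, the strongest promoter (chr7:38107535-38107784, minus strand), Cdk4, with 4 E-boxes (chr10:127063284-127063533, plus), Ccnd3, whose strongest promoter is internal (chr17:47593185-47593434, plus), and Ccnd2, among the weaker promoters (chr6:127152194-127152443, minus).
Ccne1 promoter: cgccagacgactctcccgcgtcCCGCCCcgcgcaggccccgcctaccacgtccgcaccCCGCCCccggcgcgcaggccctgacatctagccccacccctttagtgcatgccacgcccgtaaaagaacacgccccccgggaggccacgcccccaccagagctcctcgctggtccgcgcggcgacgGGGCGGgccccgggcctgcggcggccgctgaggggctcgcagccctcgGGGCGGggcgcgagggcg
Cdk4 promoter: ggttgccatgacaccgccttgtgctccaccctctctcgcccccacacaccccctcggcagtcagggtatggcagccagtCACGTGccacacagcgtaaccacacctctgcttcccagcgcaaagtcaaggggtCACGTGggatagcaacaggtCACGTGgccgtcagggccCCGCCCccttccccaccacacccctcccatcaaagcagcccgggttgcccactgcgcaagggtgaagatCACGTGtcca
Ccnd3 promoter: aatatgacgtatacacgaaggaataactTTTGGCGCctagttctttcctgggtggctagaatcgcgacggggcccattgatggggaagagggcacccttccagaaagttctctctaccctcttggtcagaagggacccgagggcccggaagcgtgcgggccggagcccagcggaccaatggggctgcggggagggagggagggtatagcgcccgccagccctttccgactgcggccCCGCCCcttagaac
Ccnd2 promoter: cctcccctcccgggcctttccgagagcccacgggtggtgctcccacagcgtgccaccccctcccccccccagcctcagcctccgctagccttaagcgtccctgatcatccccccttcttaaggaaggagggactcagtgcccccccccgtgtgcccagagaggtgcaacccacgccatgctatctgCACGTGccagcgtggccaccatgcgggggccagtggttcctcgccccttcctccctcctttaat

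The distal stretches are 200 bases around a summit, on the plus strand, and hold no annotated exon. Capitals mark TEAD (GGAATG), NKX (TNAAGTG) and AP-1 (TGANTCA) strings on either strand. Shown are the strongest distal site of Ccnd3, in an intron (chr17:47511211-47511410), the strongest distal site of Cdk6, also intronic (chr5:3516822-3517021), the strongest of Cdc25a, downstream of the gene (chr9:109894810-109895009), and the site upstream of Ccne1 that had a peak in the Myc libraries only (chr7:38112110-38112309).
Ccnd3 intron: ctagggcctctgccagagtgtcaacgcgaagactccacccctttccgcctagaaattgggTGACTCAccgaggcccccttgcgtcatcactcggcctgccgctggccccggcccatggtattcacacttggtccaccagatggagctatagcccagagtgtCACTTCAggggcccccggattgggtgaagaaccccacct
Cdk6 intron: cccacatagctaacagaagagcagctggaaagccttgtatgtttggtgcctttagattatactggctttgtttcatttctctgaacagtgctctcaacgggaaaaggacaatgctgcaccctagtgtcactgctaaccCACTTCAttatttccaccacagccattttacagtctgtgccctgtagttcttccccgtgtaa
Cdc25a downstream: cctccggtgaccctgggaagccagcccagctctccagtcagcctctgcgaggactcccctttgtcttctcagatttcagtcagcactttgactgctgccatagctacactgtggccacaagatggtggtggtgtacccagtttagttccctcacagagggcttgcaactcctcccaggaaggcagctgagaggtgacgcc
Ccne1 upstream: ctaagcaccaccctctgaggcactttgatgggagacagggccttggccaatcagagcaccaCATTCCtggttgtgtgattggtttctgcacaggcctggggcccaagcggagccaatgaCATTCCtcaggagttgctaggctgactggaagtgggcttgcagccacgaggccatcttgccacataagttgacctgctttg

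Libraries held 75336 to 131500 peaks, and depth differed 4.38-fold between the deepest (Input 1) and the shallowest (PCM1 2). Because a deeper library reaches weaker sites, peaks were compared by rank. The percentile of a peak is its place by −log10 q among all peaks of its own library, with 100 the strongest and 0 standing for no peak, which means none was detectable at that depth. A longer list holds more weak peaks, which raises the percentile of each stronger peak, so percentiles still depend on the number of peaks. Each comparison between groups was also made after every list was cut to its 75336 strongest peaks, called here an equal number of peaks. With 2 libraries against 2, the smallest two-sided p of an exact permutation test is 0.333, so no p is given. Groups are said to differ in order where both libraries of one lay above both of the other, and each such count over the 9 genes stands beside the share of all promoters or distal regions doing so. In pools of nuclei, a site open in fewer nuclei and a site less open in each nucleus cannot be told apart.

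All 9 genes had a promoter peak in all 6 libraries, as had 59.9% of protein-coding genes. Their strongest promoter peaks spanned a wide range, from the top of each list at Ccne1, Cdk4 and Cdc25a to the middle at Ccnd1. The median over the 9 genes was 93.2 and 88.8 in Input 1 and 2, 94.3 and 94.8 in Myc, against 87.3 and 88.8 in PCM1. Over all genes with a promoter peak it was 92.2 and 87.6, 92.5 and 92.5, and 87.2 and 86.9, so the genes as a group ranked close to other promoters.

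**Figure D1:**
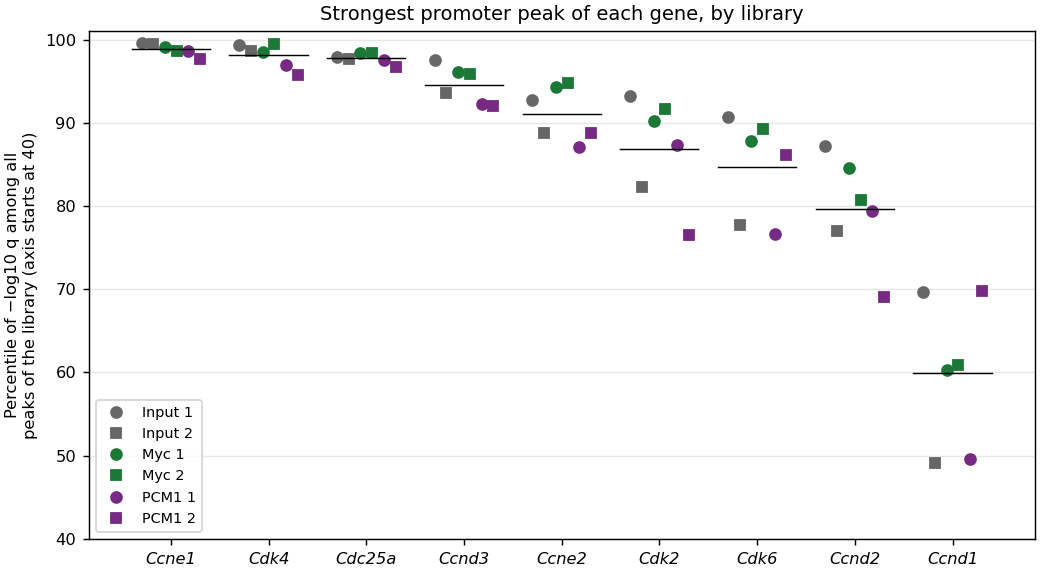
Percentile of −log10 q (vertical axis, starting at 40) of the strongest promoter peak of each gene in each of the 6 libraries, with circles for replicate 1, squares for replicate 2 and a line at the mean of the 6. Genes run from Ccne1, at 97.7 or above in every library, to Ccnd1, between 49.2 and 69.8.

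Of the D cyclins, Ccnd3 had the strongest promoter (gene at chr17:47505051-47599691). Its percentile was 97.5 and 93.6 in Input 1 and 2, 96.1 and 95.9 in Myc, against 92.3 and 92.1 in PCM1. Both Myc and both Input libraries lay above both PCM1 libraries. The summit was not at the annotated gene start but 88.4 kb downstream of it, within 81 bp of an internal coding transcript start (chr17:47593171-47593889). At the gene start itself, a weak region (chr17:47504915-47505268) had a peak in Input 1 (53.8), Input 2 (35.4) and Myc 2 (37.7) and in no other library. Of the 2 remaining promoter regions, one (chr17:47595455-47596154) ranged from 47.7 to 74.0 over the 6 libraries, and the other (chr17:47598042-47598398) had a peak in Input 1 (19.8), Myc 1 (38.3) and Myc 2 (35.3).

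Ccnd2 (chr6:127125162-127152193) had 2 promoter regions with a peak in all 6 libraries, at chr6:127150884-127151219 and chr6:127152187-127152837. The stronger of them in each library stood at 87.2 and 77.0 in Input, 84.5 and 80.7 in Myc, against 79.4 and 69.1 in PCM1. Both Myc libraries lay above both PCM1 libraries, and Input overlapped both groups. With an equal number of peaks Myc (78.0 and 72.3) and PCM1 (77.3 and 66.5) overlapped. A weak region between them (chr6:127151679-127151956) had a peak in Input 1 (18.8), Myc 1 (4.94) and PCM1 2 (19.5).

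Ccnd1 (chr7:144929931-144939925), the D cyclin classically induced by growth factors, had the weakest promoter of the 9 genes within 1 kb of a start (chr7:144939623-144939969). Its percentile was 69.6 and 49.2 in Input, 60.3 and 60.9 in Myc, against 49.7 and 69.8 in PCM1. Input and PCM1 replicates differed by about 20 points while the Myc replicates lay between them, so no group stood apart. With an equal number of peaks, Input (47.0 and 49.2) and PCM1 (44.4 and 67.4) lay above Myc (43.4 and 43.7). With a promoter limit of 3 kb, which takes in a stronger site upstream, the group means were 87.2 in Input, 90.4 in Myc and 76.9 in PCM1, above those of Ccnd2 (82.1, 87.4 and 74.2). The summit pileup was 3.91 to 5.95 times the local background. By the mean absolute difference in percentile over the 6 libraries, the non-member promoters with the nearest pattern were Nostrin (1.99), Dync1i1 (3.68) and 2810459M11Rik (3.86).

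Among the kinases, Cdk4 (chr10:127063534-127067920) had one of the strongest promoters, at 99.3 and 98.6 in Input, 98.5 and 99.4 in Myc, against 96.9 and 95.8 in PCM1. PCM1 was the lowest group, with no overlap. Cdk6 (chr5:3341485-3531008) ranked lower, at 90.7 and 77.7 in Input, 87.9 and 89.2 in Myc, against 76.6 and 86.1 in PCM1. Its main promoter region (chr5:3343416-3344743) lay 3.06 kb inside the gene, near an internal coding start, and the region at the annotated gene start (chr5:3341135-3341571) had a percentile of at most 28.6. A region between these (chr5:3342104-3343107) reached at most 41.5 and had no peak in PCM1 1. Cdk2 (chr10:128697939-128705031), the partner of the E cyclins, stood at 93.2 and 82.3 in Input, 90.2 and 91.6 in Myc, against 87.3 and 76.6 in PCM1. The Cdk2 region (chr10:128704321-128705577) also covers the start of Pmel, a pigment cell gene, and its signal cannot be divided between them.

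Of the E cyclins, Ccne1 (chr7:38097984-38107534) had the strongest promoter of all 9 genes (chr7:38107165-38108165). It stood at 99.6 and 99.5 in Input, 99.1 and 98.6 in Myc, against 98.6 and 97.7 in PCM1. Input was highest, and Myc and PCM1 overlapped narrowly. Ccne2 (chr4:11191351-11204779) had a promoter region of 1394 bp (chr4:11190503-11191896) and stood at 92.8 and 88.8 in Input, 94.3 and 94.8 in Myc, against 87.0 and 88.8 in PCM1. Both Myc libraries were above all 4 others. A region in its first kb (chr4:11192217-11192464) had a peak in Input 1 only, at 47.0.

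Cdc25a (chr9:109875579-109893895) varied least, at 97.9 and 97.6 in Input, 98.4 and 98.3 in Myc, against 97.5 and 96.6 in PCM1 (chr9:109875122-109876435). Its range over the 6 libraries was 1.73 points, against 20.6 for Ccnd1. Ordered by the mean over libraries, the genes ran Ccne1 (98.8 ± 0.707, SD, n = 6), Cdk4 (98.1 ± 1.45), Cdc25a (97.7 ± 0.636), Ccnd3 (94.6 ± 2.24), Ccne2 (91.1 ± 3.29), Cdk2 (86.9 ± 6.35), Cdk6 (84.7 ± 6.04), Ccnd2 (79.7 ± 6.33) and Ccnd1 (59.9 ± 9.10). Cdc25a was above Ccnd3, and Ccnd3 above Ccne2, in 6 of 6 libraries. Every other pair of neighbours in this order changed places in at least 1 library.

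The pileup at the summit, divided by the genome-wide background of the library, gives a depth-scaled level that does not depend on the number or rank of other peaks. It scales for depth only, and not for the share of fragments that fall in peaks. Ccne1 reached 242 and 282 in Input, 199.9 and 187 in Myc, against 186 and 173 in PCM1. The Input values lay above the 4 others. Ccne2 was at 82.4 and 89.8 in Input, 120 and 126 in Myc, against 71.6 and 83.1 in PCM1, a ratio of the Myc to the PCM1 mean of 1.59. Cdk4 was at 223 and 223, 194 and 236, and 153 and 146, a ratio of 1.44. For Ccnd1 the ratio was 1.04, with 40.9 and 43.9 in Myc, against 32.8 and 48.7 in PCM1. On this scale too Ccnd1 was lowest, and its pileup rested on 32 to 124 fragments against 156 to 958 for Ccne1. The mean over libraries was 212 ± 42.0 (SD, n = 6) for Ccne1, 163 ± 19.2 for Cdc25a and 38.6 ± 6.96 for Ccnd1. A small spread in percentile thus did not mean a small spread in level. The 95% Poisson intervals in the plot cover counting error only.

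**Figure D2:**
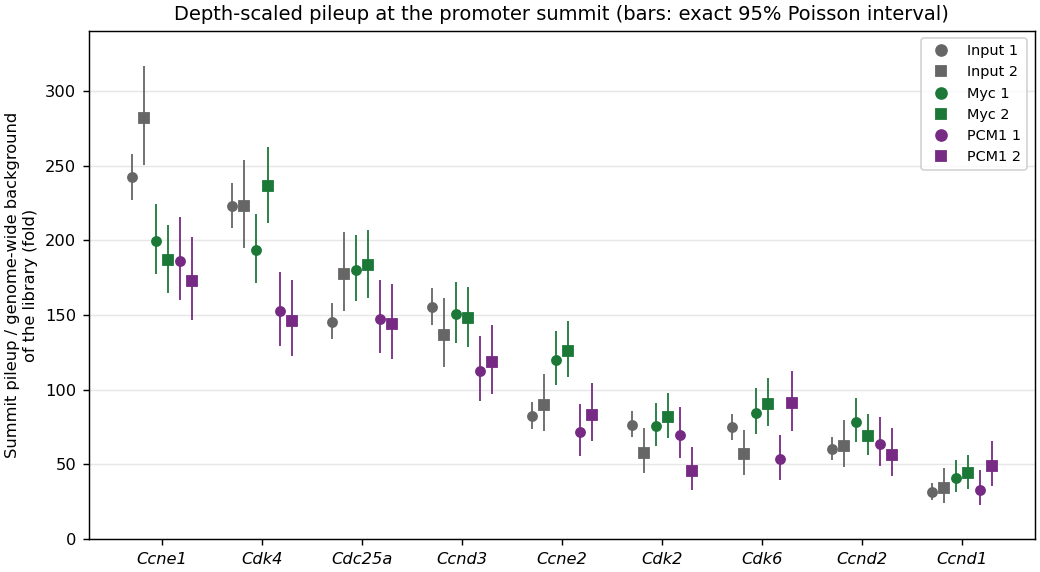
Summit pileup of the strongest promoter peak divided by the genome-wide background of the library (vertical axis, fold), for 9 genes and 6 libraries, with exact 95% Poisson intervals for counting error as bars. Both Myc libraries are above both PCM1 libraries at Ccne2 (120 and 126 against 71.6 and 83.1), while the 2 groups overlap at Ccnd1 and Cdk6.

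Both Myc libraries ranked above both PCM1 libraries at 7 of the 9 promoters, against 68.7% of the 13078 genes with a promoter peak in every library. The exceptions were Ccnd1 and Ccne1. With an equal number of peaks the count was 5 of 9, against 51.7%, and the 5 were Ccnd3, Ccne2, Cdk2, Cdk4 and Cdc25a. The opposite order was seen at 0 of 9 promoters, against 8.86%, and with an equal number of peaks at 1 of 9 (Ccnd1), against 17.4%. The median difference, Myc mean minus PCM1 mean, was 3.83 percentile points over the 9 genes and 4.03 over the 13078 genes. The cell cycle promoters thus moved about as other promoters did.

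Cell type markers moved between the same libraries. Of 12 cardiomyocyte genes, 8 (Myh6, Myh7, Tnnt2, Tnni3, Actc1, Ttn, Mybpc3 and Nkx2-5) ranked higher in both PCM1 than in both Myc libraries and 3 (Ryr2, Pln and Actn2) lower, against 8.86% and 68.7% of all promoters. On lists of equal number 8 were higher in PCM1 and 0 in Myc, against 17.4% and 51.7%. The mean percentile of this list was 92.2 and 86.5 in Input, 79.7 and 84.5 in Myc, against 87.0 and 86.5 in PCM1, and 11 of the 12 had a promoter peak in every library. All 12 fibroblast genes ranked higher in both Myc libraries, against 68.7% of all promoters. With an equal number of peaks 6 of 12 did, against 51.7%. These shares are over promoters with a peak in every library, which 8 of the 12 fibroblast genes had. The list means were 69.0 and 52.4 in Input, 62.3 and 71.5 in Myc, against 48.3 and 46.9 in PCM1. The fibroblast genes Lum and Dpt had no promoter peak in either PCM1 library or in Input 2. Of 12 endothelial genes 6 ranked higher in Myc and 1 in PCM1, of 12 smooth muscle and pericyte genes 2 and 2, of 8 epicardial genes 3 and 0, and of 6 erythroid genes 2 and 0. On lists of equal number these were 5 and 2, 2 and 4, 1 and 1, and 1 and 0. Over all promoters the shares were 68.7% and 8.86%, and 51.7% and 17.4% with an equal number of peaks. Of 8 immune genes 5, among them Ptprc and Csf1r, had no promoter peak in any library, and neither group ranked higher at any of the 8. The part of cell composition in the promoter differences was not tested. Myc hearts carried Cre at Nkx2-5, itself a gene of the cardiomyocyte list, while PCM1 hearts were wildtype. Genotype and selection therefore cannot be told apart in any comparison of Myc with PCM1.

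Of 30 other genes of the G1/S pathway, 29 had a promoter peak in all 6 libraries, and 23 ranked higher in both Myc than in both PCM1 libraries, with 1 (Cdkn2d) in the opposite order, against 68.7% and 8.86% of all promoters. On lists of equal number these counts were 16 and 3, against 51.7% and 17.4%. Cdkn2a, which encodes the inhibitor p16 of Cdk4 and Cdk6 among its products, stood at 80.0 and 63.6 in Input, 86.5 and 86.7 in Myc, against 44.2 and 42.4 in PCM1. These values are for the strongest peak at any coding start of Cdkn2a and were not assigned to the start of p16. Mnat1, a subunit of the kinase that activates Cdks, stood at 79.7 and 83.5 in Myc, against 31.6 and 21.8 in PCM1. Rb1, which encodes the retinoblastoma protein, was at 93.9 and 93.4 in Myc, against 93.9 and 93.8 in PCM1. Ccna2, the A cyclin that follows cyclin E, was above 99 in every library.

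Input 1 was the deepest library, so counts of members against Input are given with an equal number of peaks. Both Input libraries were above both PCM1 libraries at 3 of 9 promoters (Ccnd3, Ccne1 and Cdk4), against 38.3% of promoters, and below at 0 of 9, against 18.6%. Both Input libraries were above both Myc libraries at 2 of 9 (Ccnd1 and Ccne1), against 18.7%, and below at 1 of 9 (Ccne2), against 44.4%.

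The distal regions were unevenly spread, with 29 at Cdk6, 14 at Ccnd3, 6 at Ccnd2, 5 at Ccnd1, 4 at Cdc25a, 1 each at Ccne1 and Cdk4, and none at Ccne2 and Cdk2. Much of this followed gene length, since Cdk6 spans 189.5 kb. Per 10 kb of gene and flanks, the D cyclins and Cdk6 held 1.22 to 1.67 distal regions, and Ccnd1 (1.67) had more than Cdk6 (1.38). The median protein-coding gene held 0.631, and the Ccnd1 density was above that of 91.7% of genes. Cdc25a was at 1.04, Cdk4 at 0.410 and Ccne1 at 0.338.

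Of the 60 distal regions, 23 (38.3%) had a peak in all 6 libraries, against 23.6% of all distal regions and 24.1% of those within 10 kb of a protein-coding gene. Another 14 had a peak in 1 library only, against 33.0%. The number with a peak was 46 and 32 in Input, 45 and 43 in Myc, against 34 and 30 in PCM1. Where present, their median percentile was 60.5 and 57.5 in Input, 51.0 and 59.3 in Myc, against 52.7 and 57.0 in PCM1, against 43.8 to 45.8 for all distal peaks. Pooled over the genes, the distal regions were thus shared by more libraries and ranked higher than distal regions at large, which is a description without a test. The share differed by gene. A peak in all 6 libraries was found at 8 of 14 regions of Ccnd3, 3 of 5 of Ccnd1 and 2 of 4 of Cdc25a. It was found at 2 of 6 of Ccnd2, 8 of 29 of Cdk6, and 0 of 1 each of Ccne1 and Cdk4.

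The distal sites of Ccnd1 downstream of the gene and at -1.75 kb outranked its promoter in every library, while its other distal sites did not. A region downstream of the gene (chr7:144927435-144928257), 12.1 kb from the start, stood at 91.9 and 86.7 in Input, 73.5 and 81.9 in Myc, against 89.3 and 90.6 in PCM1. PCM1 was above Myc. A region upstream of the gene, at -1.75 kb from the start (chr7:144941270-144941893) showed the opposite order, with 88.4 and 86.0 in Input, 88.4 and 92.4 in Myc, against 78.1 and 75.7 in PCM1. Its depth-scaled pileup was 83.3 and 110 in Myc, against 53.2 and 53.2 in PCM1, against 29.8 and 41.8 and 68.6 and 78.6 at the downstream region. An intronic region 2.26 kb into the gene (chr7:144937506-144937860) and another upstream at -3.53 kb (chr7:144943255-144943652) were also higher in Myc, and the latter had no peak in PCM1 2.

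At Ccnd2 the strongest distal region (chr6:127147685-127148025), 4.34 kb from the start and overlapping an exon, had the largest difference between the Myc and PCM1 means of the 60 distal regions. It stood at 83.2 and 76.8 in Input, 86.7 and 88.0 in Myc, and 52.6 in PCM1 1, with no peak in PCM1 2. Its pileup was 188, 58, 113, 119 and 34 fragments in the 5 libraries with a peak. A weaker intronic region 9.94 kb from the start (chr6:127142099-127142614) was present in both Myc libraries (62.6 and 56.7) and Input 1 (39.1) and in no other.

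Ccnd3 had 8 distal regions with a peak in all 6 libraries. The strongest, in an intron 6.26 kb from the gene start (chr17:47510993-47511931), stood at 97.5 and 95.5 in Input, 98.2 and 97.9 in Myc, against 87.7 and 90.6 in PCM1. In Myc it ranked above the main Ccnd3 promoter. Its depth-scaled pileup was 157 and 160 in Input, 187 and 186 in Myc, against 86.0 and 109.6 in PCM1, so PCM1 was lowest on both scales. Another intronic region 62.4 kb from the start (chr17:47567191-47567737) was higher in PCM1 (84.5 and 83.1) than in Myc (76.5 and 73.2) or Input (78.7 and 63.0).

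The 29 distal regions of Cdk6 all lay in the gene body, and 8 had a peak in every library while 9 had one in a single library. The strongest, 175.4 kb from the start (chr5:3516458-3517109), stood at 89.7 and 83.7 in Input, 88.7 and 90.9 in Myc, against 84.2 and 88.0 in PCM1. Both Myc libraries lay above both PCM1 libraries, and Input overlapped both groups. With an equal number of peaks Myc (83.9 and 86.8) and PCM1 (82.5 and 87.0) overlapped. This region ranked above the strongest Cdk6 promoter peak in 5 of 6 libraries. Regions 125.3 kb (chr5:3465980-3466947) and 161.7 kb (chr5:3502618-3503410) from the start were higher in PCM1 (83.3 and 75.1; 84.1 and 79.5) than in Myc (72.3 and 68.0; 71.8 and 71.3). In all, 10 of the 29 Cdk6 regions were higher in both Myc libraries, against 24.6% of all distal regions. The opposite order was seen at 4, against 7.02%. With an equal number of peaks, when fewer than 29 of these regions kept a peak, the counts were 1 and 5, against 16.5% and 18.5%.

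**Figure D3:**
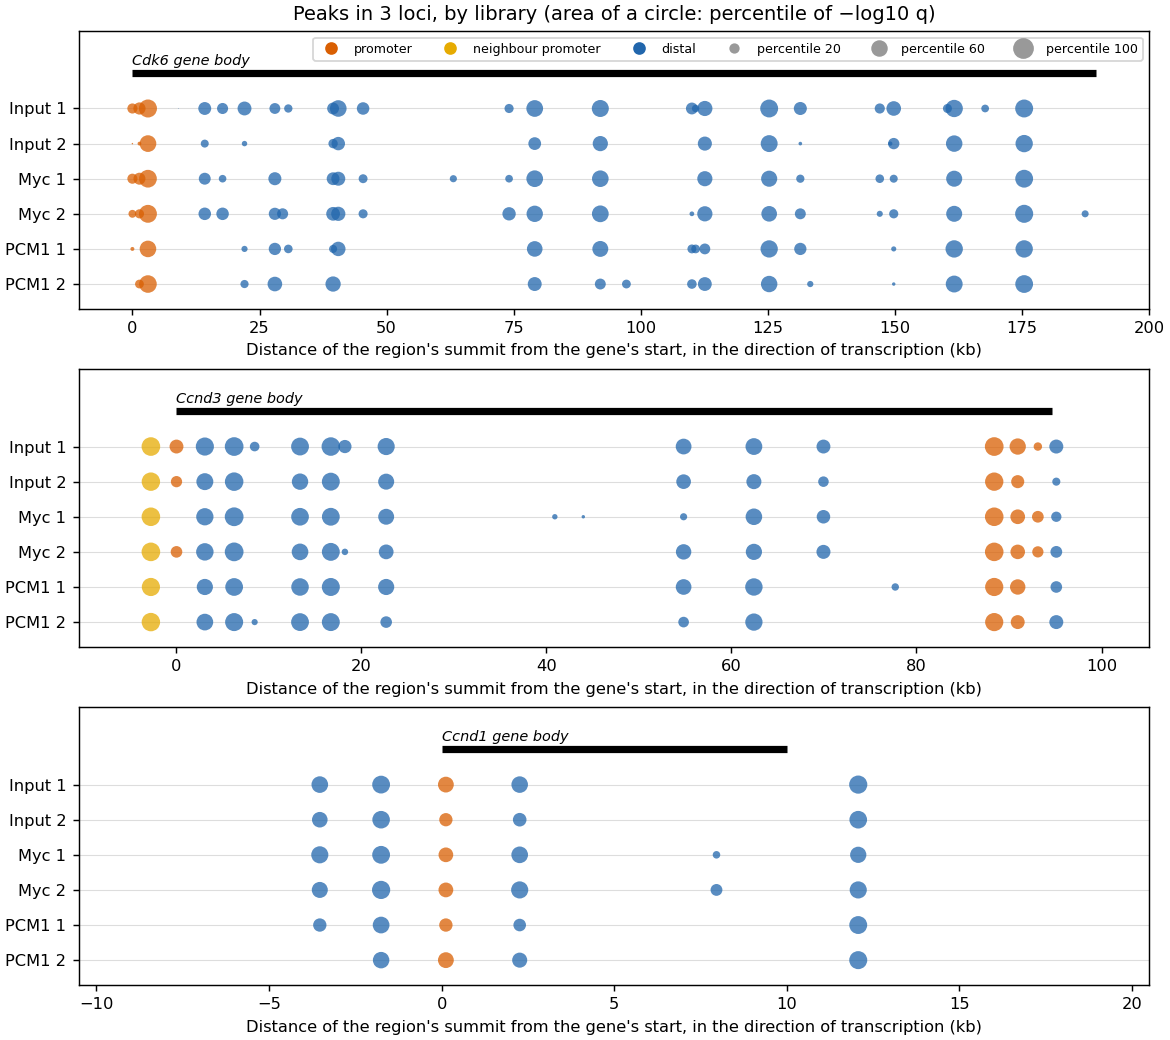
Peaks at Cdk6, Ccnd3 and Ccnd1 in each library (rows) by distance of the summit from the gene start in kb, with circle area giving the percentile of −log10 q and colour giving promoter, neighbour promoter or distal. The strong intronic sites of Cdk6 and Ccnd3 recur in every row, and the Ccnd1 site 8.0 kb from the start appears in the 2 Myc libraries only.

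Cdc25a had a strong distal region 19.3 kb from the start, past the end of the gene (chr9:109894677-109895132). It stood at 95.4 and 91.5 in Input, 93.1 and 92.1 in Myc, against 91.9 and 89.4 in PCM1, with a depth-scaled pileup of 81.9 to 94.4. Like the promoter of the gene, it varied little in percentile. Cdk4 had a single distal region (chr10:127058218-127058519), at -5.18 kb from the start, with 61.5 and 45.2 in Input, 39.5 and 59.3 in Myc and 51.5 in PCM1 2, with no peak in PCM1 1.

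A peak in both Myc libraries and in no other library was found at 2 of 60 distal regions, against 1.99% of all distal regions. No region was present in both Input or both PCM1 libraries alone. One lay in a UTR exon of Ccnd1 (chr7:144931840-144932057), at 15.9 and 39.1. The other lay upstream of Ccne1 at -4.68 kb (chr7:38112072-38112312), at 33.5 and 43.0, on pileups of 41 and 44 fragments. Both were weak, and only the Ccne1 region kept a peak in both Myc libraries with an equal number of peaks (5.41 and 17.9).

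Over all distal regions of the 9 genes, 23 of 60 ranked higher in both Myc than in both PCM1 libraries, against 24.6%, and 7 of 60 in the opposite order, against 7.02%. With an equal number of peaks the counts were 12 of 51, against 16.5%, and 11 of 51, against 18.5%. By gene, the 12 were 3 at each D cyclin and 1 each at Ccne1, Cdk6 and Cdc25a, and the 11 were 5 at Cdk6, 4 at Ccnd3 and 1 each at Ccnd1 and Cdc25a. The larger number of peaks in Myc (107216 and 108513, against 83139 and 81487 in PCM1) moved with the first count, which fell from 23 to 12 when the lists were made equal. Against Input with an equal number of peaks, both Input libraries were above both PCM1 libraries at 10 of 51, against 13.7%, and below at 7 of 51, against 14.5%. Both Input libraries were above both Myc libraries at 11 of 51, against 17.0%, and below at 10 of 51, against 15.2%. None of these shares was tested against its background.

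**Figure D4:**
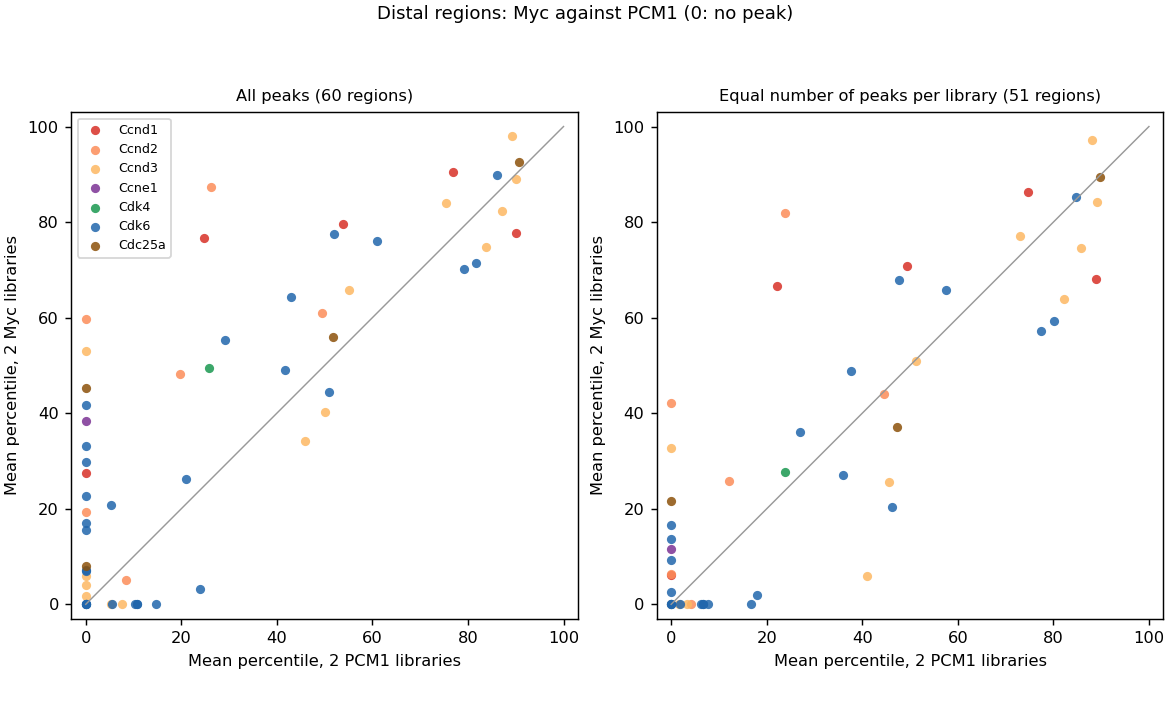
Mean percentile of each distal region in the 2 Myc libraries (vertical axis) against the 2 PCM1 libraries (horizontal axis), coloured by gene, with all peaks (left, 60 regions) and an equal number of peaks (right, 51 regions), where 0 is no peak and the line marks equality. Regions lie mostly above the line on the left and on both sides on the right, where 12 have both Myc libraries above both PCM1 libraries and 11 the reverse.

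The base composition of the promoter windows was described over 200 bp around the summit. Of the 9 strongest promoter regions, the median GC content was 70% (57.5 to 78.5%) against 62.5% for all promoter regions, and the median observed to expected CpG ratio was 0.800 against 0.685. Distal windows had a median of 51.5% GC against 50% for all distal regions. Short motifs were searched on both strands. The E2F strings were TTTCCCGC, TTTGGCGC, TTTCGCGC and TTTGCCGC, the cAMP response element was TGACGTCA and NRF1 was GCATGCGC. Of general promoter elements, the E-box was CACGTG, the GC box GGGCGG, the CCAAT box its own letters and the box of TATA-type promoters TATAAA. Of factors common at enhancers, AP-1 was taken as TGANTCA, the ETS family as CCGGAAG, factors of the GATA family as AGATAA, TEAD factors as GGAATG, NKX factors as TNAAGTG and TCF factors as CTTTGAT, with MEF2 as CTA and TAG spaced by 4 bases. The CCAAT box was in 5 of the 9 promoter windows against 27.0% of all promoter windows, the GC box in 6 of 9 against 49.6%, the E-box in 2 of 9 (Ccne2 and Cdk4) against 6.59%, and an E2F string in 1 of 9 (Cdk2) against 2.09%. No TATA-type box, cAMP response element, AP-1, ETS, NRF1, MEF2 or GATA string was in any of the 9 windows, and TEAD, NKX and TCF were in 1 each. In the distal windows the E-box was in 6 of 60 (10%) against 3.82% of all distal windows, GATA in 3 of 60 against 13.0%, TCF in 4 of 60 against 2.42%, NKX in 5 of 60 against 11.7% and TEAD in 8 of 60 against 15.8%.

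Upstream of the RefSeq start, 6 of the 9 genes were in the table of RefSeq promoters used here (GRCm38.p6). The 250 bases before the Cdk4 start held 4 E-boxes, shown in capitals above, and 5 of 27025 promoters (0.0185%) held 4 or more, while 6.05% held at least 1. An E2F string was in the same stretch of Cdc25a and Cdk2, against 1.91% of promoters. The Cdk4 count was noticed in the sequence and chosen after its value was seen. A match is a run of letters and not evidence of binding.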

How the data were processed

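The authors trimmed reads (fastq-mcf), aligned them with Bowtie2 2.3.3.1 to mm10, marked duplicates with Picard 2.2.1, removed blacklisted regions with bedtools 2.7.1, shifted alignments for Tn5 and called peaks per library with MACS2 2.1.0.20160309 at a q-value threshold of 0.05. The deposited lists give each summit's fold over local background (a ratio, with 1 added to both terms) and, as −log10, its p-value and its q-value. The pileup and local background were solved from fold and p-value, and at least 99.998% of pileups came out whole within 0.02. The commonest local background of a library stood for its genome-wide background (0.903 to 3.96) and measures relative depth. Peaks overlapping by 1 bp or more were merged, as checked with bedtools 2.31.1, and annotated with GENCODE M21 in Python 3.11.15 (numpy 2.4.6, pandas 2.3.3, scipy 1.17.1). Procedures were tested on simulated data.

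Named by rule were all 9 genes, every promoter region, the distal region of highest mean percentile at each gene, regions of 1 group, and the 3 promoters nearest in pattern to the member of largest range. Other distal regions at Ccnd1, Ccnd2, Ccnd3 and Cdk6, and single genes of the lists, were chosen after their values were seen. The members, lists and tests were chosen with earlier results of these data known. No group test was made. Alternatives were a q of 0.01, an equal number of peaks, flanks of 2 kb, summits chained within 150 bp, promoter limits of 200 bp and 3 kb, ranks by fold or pileup, and each library left out in turn.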

Additional observations from a re-analysis of the deposited data

How the results depend on the processing

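All 9 genes kept a promoter peak in every library under each alternative run. The number of regions and the share of distal regions with a peak in all libraries moved by less than 1.5 times and less than the spread between libraries. With an equal number of peaks, distal regions higher in both Myc libraries fell from 23 to 12, those higher in both PCM1 libraries rose from 7 to 11, and regions of 1 group rose from 2 to 5 (1 in Input and 1 in PCM1, both at Cdk6, and 3 in Myc, at Ccnd2, Ccne1 and Cdc25a). With 2 kb flanks 1 region of 1 group was left, since the Ccne1 site lies farther out. Leaving out 1 library at a time gave 23 to 29 regions higher in Myc and 7 to 15 higher in PCM1. No share over all distal regions was taken for these counts, nor for regions of 1 group with an equal number of peaks. Whether such changes are particular to these genes is therefore not known. The latter count was 14 without PCM1 1 and 15 without PCM1 2, against 9 without Myc 1. In each of these fewer libraries had to agree, and the cause of the rise was not tested. When peaks were ranked by fold instead, the Cdc25a promoter reversed, at -2.02 points (Myc minus PCM1) against 1.26, Ccnd1 went from 0.84 to -19.2 and Ccne1 from 0.67 to -0.48, and 24 of 27 group values moved by more than the replicate spread; the cause was not tested. By summit pileup the sign was as reported for 9 of 9 genes. With a promoter limit of 3 kb Ccnd1 ranked above Ccnd2 in all 3 group means, and its difference rose to 13.5 points, while with an equal number of peaks it was -12.3. With 2 libraries a group and peaks resting on as few as 5 fragments in the shallowest libraries, small differences in rank were not resolved.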
